A study of Homo sapiens with 6 samples.

Results

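Messenger RNA levels of 54 mitosis, spindle and kinetochore genes were compared between SY5Y-TR1 and SH-SY5Y cells, out of 19752 genes represented on the Affymetrix U133 Plus 2.0 array. The 54 were listed by their roles in mitosis, with earlier results of these data known. Each was represented by the probe set, the group of short probes for 1 transcript, with the highest mean over the 6 arrays among those annotated to that gene alone. All 54 were measured, and no filter on low signals was applied. SY5Y-TR1 is a subline of the human neuroblastoma (NB) line SH-SY5Y that resists the ALK inhibitor TAE684, expanded as 1 subclone and kept in medium with 1 μM TAE684. SH-SY5Y, its TAE684-sensitive parent, grew without the drug, and both lines carry the activating ALK F1174L mutation. Each line was profiled on 3 arrays, as log2 signals of robust multi-array average (RMA). The labels call the arrays biological replicates while the submitters' design text speaks of replicates that were run, so p-values here measure only the spread between these samples. With the drug present in the medium of the resistant line alone, the effect of the drug and the resistant state cannot be told apart.

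Cells enter mitosis when CDK1, bound to A- and B-type cyclins, is switched on by CDC25 phosphatases. Polo-like and Aurora kinases, kinesin motors and kinetochore proteins then build the spindle and attach chromosomes to it, the spindle checkpoint holds the anaphase-promoting complex (APC) back until attachment is complete, and the APC with CDC20 destroys securin and the B-type cyclins. Most of these transcripts are made in G2 and M phase, so their amount in a bulk culture depends both on how many cells are dividing and on how much of the transcript each dividing cell holds. Many of their promoters carry CCAAT boxes, bound by NF-Y, and the cell cycle genes homology region (CHR, consensus TTTGAA), which is bound by the MuvB core of the DREAM complex in resting cells and of the MYBL2 and FOXM1 complexes in G2 and M.

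Upstream sequences of 8 of the genes are printed as examples of where CCAAT boxes and CHRs lie. Chosen were the regulators CDK1, CCNB1, PLK1 and AURKB, the proliferation markers MKI67 and TOP2A, KIF20A as the gene with the largest decrease, and CCNB2. The last was picked after its values were seen, for its 3 evenly spaced CCAAT boxes beside a CHR. Not every printed sequence holds both elements. Each is the 200 bases before the transcription start that lies farthest upstream, 5′ to 3′ on the gene's own strand, from RefSeq on GRCh38.p14. Capitals mark every TTTGAA and CCAAT read on either strand, so that TTCAAA and ATTGG are the same elements in the other orientation. In MKI67 a TTTGAA and an ATTGG overlap.
CDK1: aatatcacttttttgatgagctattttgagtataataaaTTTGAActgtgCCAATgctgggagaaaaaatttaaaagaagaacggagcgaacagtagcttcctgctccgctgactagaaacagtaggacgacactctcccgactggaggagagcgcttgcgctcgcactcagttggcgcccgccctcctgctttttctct
CCNB1: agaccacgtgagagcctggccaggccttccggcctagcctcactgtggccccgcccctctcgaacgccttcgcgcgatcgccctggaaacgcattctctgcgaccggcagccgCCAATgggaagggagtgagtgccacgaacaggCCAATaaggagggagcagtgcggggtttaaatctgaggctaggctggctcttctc
CCNB2: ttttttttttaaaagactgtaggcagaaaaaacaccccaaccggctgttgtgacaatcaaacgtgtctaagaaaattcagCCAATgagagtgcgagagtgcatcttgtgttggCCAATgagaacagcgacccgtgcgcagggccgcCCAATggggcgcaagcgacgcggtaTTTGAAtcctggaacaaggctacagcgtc
PLK1: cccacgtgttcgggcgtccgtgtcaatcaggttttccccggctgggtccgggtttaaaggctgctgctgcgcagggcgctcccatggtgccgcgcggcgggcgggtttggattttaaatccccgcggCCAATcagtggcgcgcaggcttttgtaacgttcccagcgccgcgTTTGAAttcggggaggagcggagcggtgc
AURKB: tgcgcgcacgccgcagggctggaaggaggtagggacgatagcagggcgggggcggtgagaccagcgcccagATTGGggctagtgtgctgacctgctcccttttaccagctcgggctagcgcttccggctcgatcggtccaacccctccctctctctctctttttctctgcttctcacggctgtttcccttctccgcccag
KIF20A: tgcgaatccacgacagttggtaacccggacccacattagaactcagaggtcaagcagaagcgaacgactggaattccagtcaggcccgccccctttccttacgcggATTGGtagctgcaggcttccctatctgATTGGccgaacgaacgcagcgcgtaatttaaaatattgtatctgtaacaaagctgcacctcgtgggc
MKI67: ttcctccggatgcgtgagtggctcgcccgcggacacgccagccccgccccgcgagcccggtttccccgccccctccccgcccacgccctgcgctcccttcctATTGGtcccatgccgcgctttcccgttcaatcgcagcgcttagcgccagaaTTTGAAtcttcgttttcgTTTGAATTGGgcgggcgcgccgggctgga
TOP2A: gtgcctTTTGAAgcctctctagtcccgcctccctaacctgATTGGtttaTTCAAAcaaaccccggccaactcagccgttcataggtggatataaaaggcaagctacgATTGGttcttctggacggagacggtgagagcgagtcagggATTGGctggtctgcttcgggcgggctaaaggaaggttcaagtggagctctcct
These lie upstream of CDK1 at chr10:60778131-60778330 on the plus strand, CCNB1 at chr5:69166950-69167149 on the plus strand, CCNB2 at chr15:59104946-59105145 on the plus strand, PLK1 at chr16:23678689-23678888 on the plus strand, AURKB at chr17:8210250-8210449 on the minus strand, KIF20A at chr5:138178912-138179111 on the plus strand, MKI67 at chr10:128126424-128126623 on the minus strand and TOP2A at chr17:40417897-40418096 on the minus strand. CDK1 and AURKB have 2 annotated starts each, and only the window of the outer one was used.

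All 54 genes were lower in SY5Y-TR1 cells. With limma and Benjamini-Hochberg adjustment over all genes, 53 of 54 passed an adjusted p under 0.05 with a fold of at least 2, against 5.99% of all genes called lower by that rule, and none was higher, against 5.36%. At the adjusted p alone all 54 passed, against 24.4% of all genes, with the largest adjusted p at 1.65e-05 for BUB3. Their median log2 fold change was -2.12, a 4.36-fold decrease that was the same with PLK1 at its bound, with the middle 50% of genes between -2.29 and -1.74, whereas the median over all genes was 0.04. For each of the 54, every SY5Y-TR1 array lay below every SH-SY5Y array, as it did for 27.2% of all genes, and the narrowest gap between the lines was 0.53 on the log2 scale. As these genes are bright, the share was also taken over the 10564 genes at least as bright as the dimmest of them, of which 8.31% were called lower. The background level of 5.79 was set at percentile 90 of the mean signals of 38 genes from unrelated tissues, and all 54 genes were above it in SH-SY5Y cells and 53 in SY5Y-TR1 cells. Array by array, their median log2 signal was 8.59, 8.62 and 8.66 in SY5Y-TR1 cells, against 10.90, 10.88 and 10.88 in SH-SY5Y cells. Fewer dividing cells and less RNA per cell cannot be told apart in these bulk samples.

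**Figure D1:**
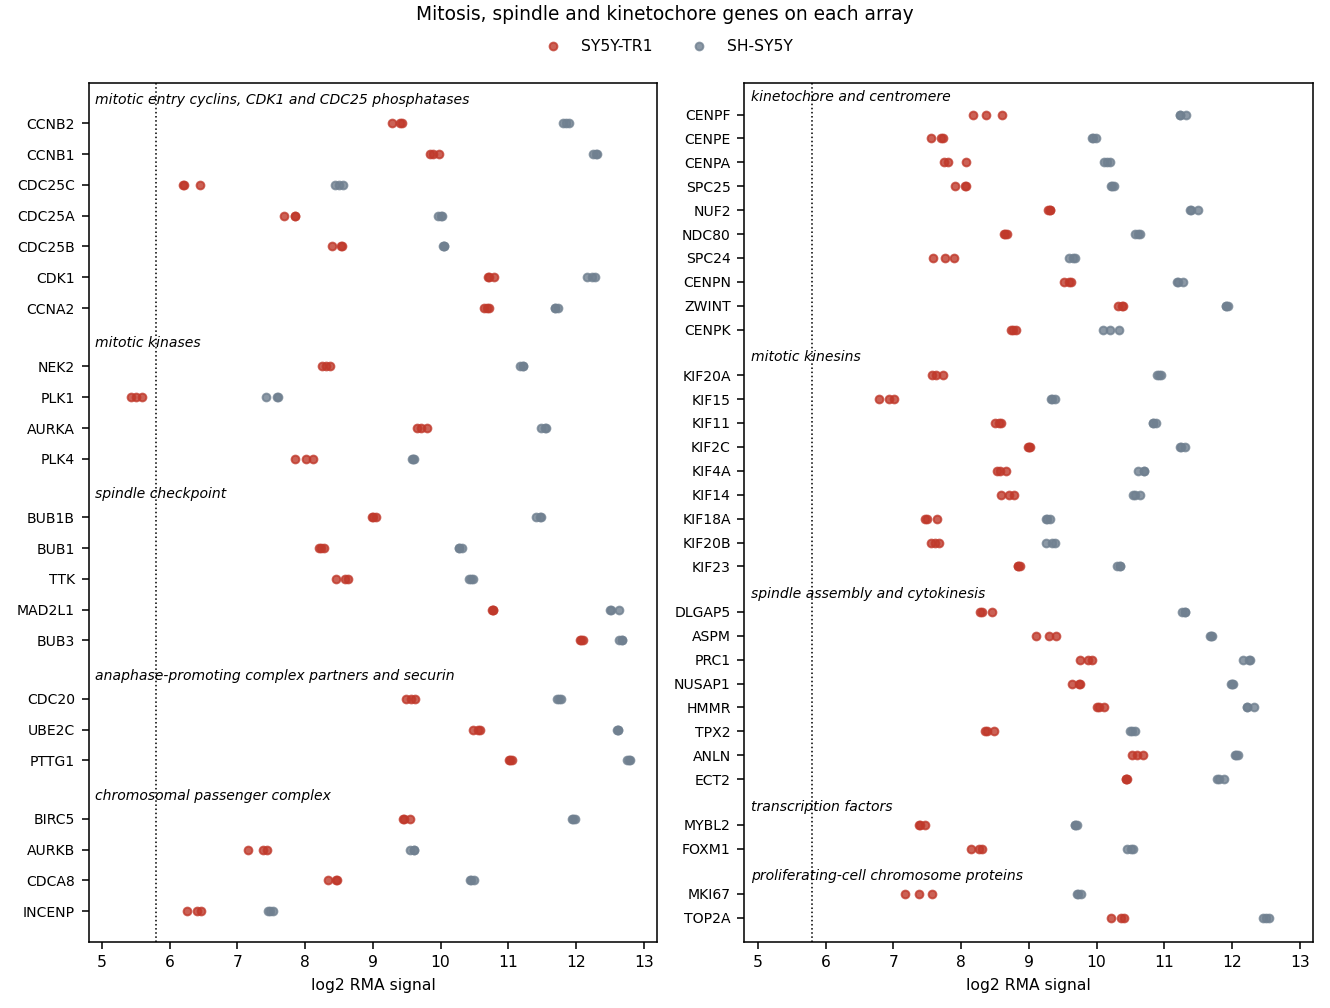
Log2 RMA signal of each of the 54 genes (rows, grouped by role) on the 3 SY5Y-TR1 arrays (red) and the 3 SH-SY5Y arrays (grey), with the background level of 5.79 as a dotted line. The lines overlap for no gene, and PLK1 in SY5Y-TR1 cells is the only gene whose points all lie at or below the background level.

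The decrease was not the same for every gene. It ran from -3.28 for KIF20A to -0.59 for BUB3, and 32 of 54 genes were at least 4-fold lower, not counting PLK1, for which only a bound holds. Against the median of the 54 genes, the 95% confidence interval of the log2 fold change lay wholly below it for 16 genes, wholly above it for 21 and covered it for 17. The spread of fold changes was thus wider than the error between arrays of most single genes. That error leaves out differences between probe sets of 1 gene, which were large for some genes and small for others. Above background, those of MAD2L1 read -1.78, -2.17 and -2.82, and those of CCNA2 -1.02 and -1.12. Part of the spread between genes may therefore come from the probe sets, which was not tested. By role, the group medians ran from -2.27 for the transcription factors and for MKI67 with TOP2A to -1.89 for the spindle checkpoint genes, or to -1.77 for the mitotic kinases with PLK1 at its bound. Ranked among all 19752 genes from the most lowered, 37 of 54 were in the first 500 but 0 in the first 100, and KIF20A came at 149. NDC80, just short of 4-fold at -1.95, came at 440, so fewer than 440 of all genes were at least 4-fold lower.

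**Figure D2:**
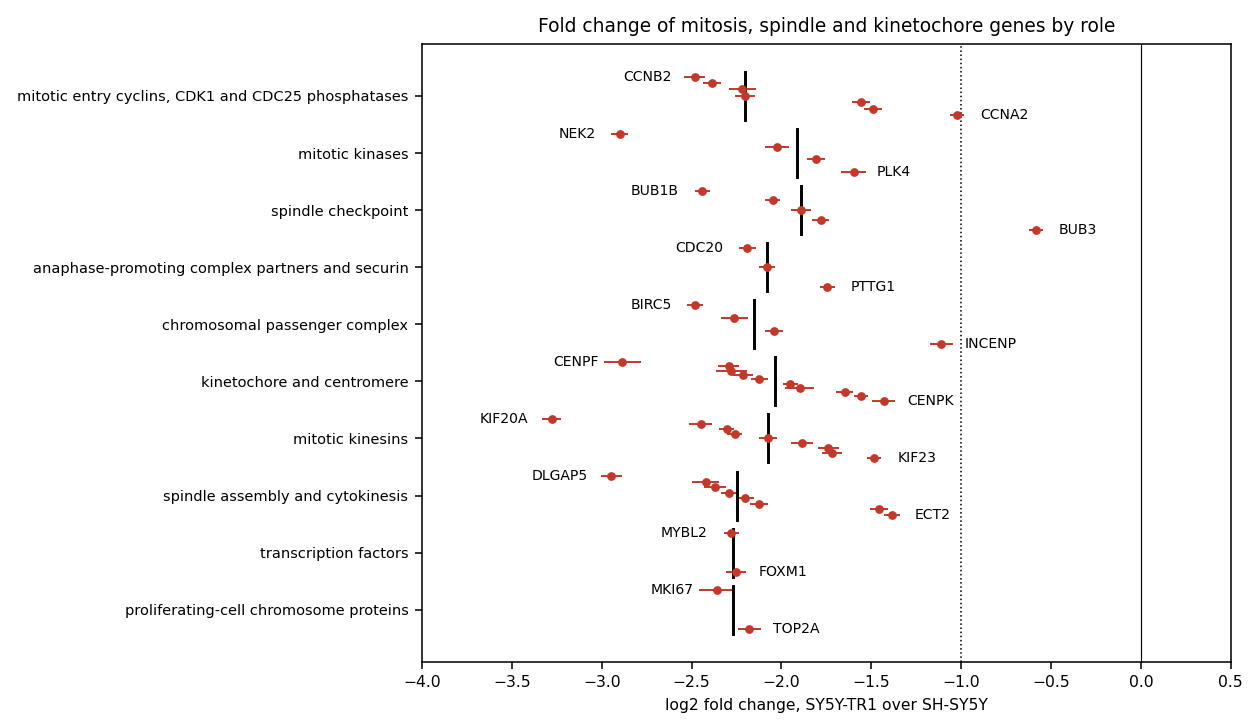
Log2 fold change in SY5Y-TR1 relative to SH-SY5Y (points, with standard errors) for each gene by role, with group medians as black bars and the 2-fold limit as a dotted line. The gene with the largest and the gene with the smallest decrease of each group are named, and BUB3 at -0.59 is the 1 gene to the right of the limit.

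Among the genes of mitotic entry, 7 of 7 were called lower (median -2.20). CDK1, the kinase that drives entry, had log2 signals of 10.79, 10.69 and 10.72 in SY5Y-TR1 cells, against 12.23, 12.16 and 12.28 in SH-SY5Y cells (log2 fold change of SY5Y-TR1 relative to SH-SY5Y -1.49 ± 0.050 SE, 2.81-fold lower, limma adjusted p = 5.01e-07, probe set 203213_at, as all p-values here after Benjamini-Hochberg adjustment). CCNB1, its main mitotic cyclin, read 9.98, 9.84 and 9.88 in SY5Y-TR1 cells, against 12.30, 12.25 and 12.30 in SH-SY5Y cells (-2.39 ± 0.050 SE, 5.22-fold lower, limma adjusted p = 6.81e-08, probe set 214710_s_at). The other B-type cyclin, CCNB2, measured 9.39, 9.27 and 9.43 in SY5Y-TR1 cells, against 11.80, 11.85 and 11.90 in SH-SY5Y cells (-2.48 ± 0.057 SE, 5.59-fold lower, limma adjusted p = 9.86e-08, probe set 202705_at). The lines did not overlap for any of the 3, and the 95% confidence intervals of the log2 fold change of CCNB1 (-2.50 to -2.27) and CCNB2 (-2.62 to -2.35) lay below that of CDK1 (-1.61 to -1.37). Averaged over its 3 probe sets, CCNB2 was lower by less than 2-fold (-0.87), the other 2 being dim. CCNA2, the A-type cyclin of S phase and G2, had the smallest decrease of the group, with 10.68, 10.64 and 10.71 in SY5Y-TR1 cells, against 11.73, 11.69 and 11.69 in SH-SY5Y cells (-1.02 ± 0.041 SE, 2.03-fold lower, limma adjusted p = 1.19e-06, probe set 213226_at), just past the 2-fold limit. After centring on housekeeping genes it fell just short of that limit (-0.996). The phosphatases CDC25A, CDC25B and CDC25C, which remove the inhibitory phosphates from CDKs, had log2 fold changes of -2.22 to -1.56.

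All 4 mitotic kinases were lower (median -1.92, or -1.77 with PLK1 at its bound). NEK2, a centrosomal kinase that loosens the link between centrosomes, had signals of 8.30, 8.25 and 8.37 in SY5Y-TR1 cells, against 11.22, 11.17 and 11.22 in SH-SY5Y cells (-2.90 ± 0.047 SE, 7.47-fold lower, limma adjusted p = 2.77e-08, probe set 204641_at). AURKA, which matures centrosomes and with TPX2 builds the spindle, gave 9.72, 9.66 and 9.80 in SY5Y-TR1 cells, against 11.54, 11.49 and 11.56 in SH-SY5Y cells (-1.81 ± 0.051 SE, 3.5-fold lower, limma adjusted p = 2.34e-07, probe set 208079_s_at). Neither gene's lines overlapped, although the 1 AURKA probe set without a shared-sequence name, which was not above background in either line, had a log2 fold change of -0.28. PLK1, the polo-like kinase needed for entry, spindle assembly and cytokinesis, had 5.59, 5.51 and 5.43 in SY5Y-TR1 cells, against 7.61, 7.42 and 7.58 in SH-SY5Y cells. All 3 SY5Y-TR1 arrays were at or below the background level of 5.79, so its decrease is a bound of at least 3.35-fold (limma adjusted p = 4.73e-07). The bound is the SH-SY5Y mean over the higher of that level and the gene's SY5Y-TR1 mean. PLK4, the kinase of centriole duplication, had the smallest decrease, with 7.85, 8.01 and 8.11 in SY5Y-TR1 cells, against 9.58, 9.59 and 9.61 in SH-SY5Y cells (-1.60 ± 0.069 SE, 3.03-fold lower, limma adjusted p = 1.61e-06, probe set 204887_s_at).

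The chromosomal passenger complex, which corrects faulty attachments and directs cytokinesis, joins the kinase AURKB to INCENP, BIRC5 (survivin) and CDCA8 (borealin), and all 4 were lower (median -2.15). BIRC5 had 9.46, 9.54 and 9.45 in SY5Y-TR1 cells, against 11.99, 11.94 and 11.96 in SH-SY5Y cells (-2.48 ± 0.045 SE, 5.58-fold lower, limma adjusted p = 4.09e-08, probe set 202095_s_at). AURKB had 7.38, 7.16 and 7.44 in SY5Y-TR1 cells, against 9.61, 9.55 and 9.61 in SH-SY5Y cells (-2.26 ± 0.076 SE, 4.8-fold lower, limma adjusted p = 4.97e-07, probe set 209464_at). Its scaffold INCENP changed least, at 6.25, 6.46 and 6.41 in SY5Y-TR1 cells, against 7.45, 7.52 and 7.48 in SH-SY5Y cells (-1.11 ± 0.063 SE, 2.16-fold lower, limma adjusted p = 6.50e-06, probe set 219769_at). Decreases within this complex ran from 2.16-fold for INCENP to 5.58-fold for BIRC5, without overlap between the lines in any of the 4.

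In the spindle checkpoint 4 of 5 genes passed the 2-fold rule (median -1.89). BUB1B (BUBR1), which with MAD2L1 inhibits CDC20, had 9.00, 9.04 and 8.99 in SY5Y-TR1 cells, against 11.48, 11.41 and 11.46 in SH-SY5Y cells (-2.44 ± 0.042 SE, 5.43-fold lower, limma adjusted p = 3.43e-08, probe set 203755_at). BUB1 and TTK (MPS1), the kinases that recruit the checkpoint to kinetochores, and MAD2L1 (MAD2) had log2 fold changes of -2.05 to -1.78. BUB3, the adaptor that carries BUB1 and BUBR1 to kinetochores, was the only gene of the 54 that missed 2-fold, with 12.10, 12.06 and 12.07 in SY5Y-TR1 cells, against 12.64, 12.67 and 12.68 in SH-SY5Y cells (-0.59 ± 0.040 SE, 1.5-fold lower, limma adjusted p = 1.65e-05, probe set 209974_s_at). Its lines still did not overlap. Its 4 bright probe sets had log2 fold changes from -0.59 to -0.47, and a dim probe set, 237245_at, had -1.24 with all SY5Y-TR1 arrays at or below background.

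Downstream of the checkpoint, CDC20, the APC activator and checkpoint target, had 9.62, 9.49 and 9.57 in SY5Y-TR1 cells, against 11.78, 11.72 and 11.75 in SH-SY5Y cells (-2.19 ± 0.048 SE, 4.57-fold lower, limma adjusted p = 8.31e-08, probe set 202870_s_at). The APC's ubiquitin-conjugating enzyme UBE2C fell by 2.08. PTTG1, the securin that holds separase inactive until the APC destroys it, had 11.02, 11.01 and 11.06 in SY5Y-TR1 cells, against 12.80, 12.78 and 12.75 in SH-SY5Y cells (-1.74 ± 0.041 SE, 3.35-fold lower, limma adjusted p = 1.04e-07, probe set 203554_x_at). All 3 were lower with no overlap between the lines (median -2.08).

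All 10 kinetochore and centromere genes were lower (median -2.04). CENPF, a large coiled-coil protein that accumulates in G2 and moves to kinetochores, had 8.17, 8.60 and 8.36 in SY5Y-TR1 cells, against 11.24, 11.31 and 11.24 in SH-SY5Y cells (-2.89 ± 0.104 SE, 7.39-fold lower, limma adjusted p = 6.72e-07, probe set 207828_s_at), with the largest spread between SY5Y-TR1 arrays of all 54 genes (SD 0.214, n = 3). CENPK, of the constitutive centromere network, changed least and had 8.81, 8.77 and 8.74 in SY5Y-TR1 cells, against 10.09, 10.20 and 10.33 in SH-SY5Y cells (-1.43 ± 0.066 SE, 2.7-fold lower, limma adjusted p = 2.32e-06, probe set 222848_at). The 4 subunits of the NDC80 complex, which binds the microtubule end, had similar log2 fold changes, of -1.95 for NDC80, -2.12 for NUF2, -1.90 for SPC24 and -2.21 for SPC25. CENPA, the centromeric histone, and CENPE, the kinetochore motor, had log2 fold changes of -2.28 and -2.29.

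Of the mitotic kinesins, 9 of 9 were lower (median -2.07). KIF20A (MKLP2), which brings the passenger complex to the midzone, had the largest decrease of the 54 genes, with 7.57, 7.63 and 7.73 in SY5Y-TR1 cells, against 10.96, 10.92 and 10.89 in SH-SY5Y cells (-3.28 ± 0.054 SE, 9.71-fold lower, limma adjusted p = 2.91e-08, probe set 218755_at). KIF15, a bipolar spindle motor that can stand in for KIF11, had 6.78, 6.93 and 7.00 in SY5Y-TR1 cells, against 9.33, 9.34 and 9.39 in SH-SY5Y cells (-2.45 ± 0.064 SE, 5.46-fold lower, limma adjusted p = 1.66e-07, probe set 219306_at). KIF23 (MKLP1), the midzone motor of the centralspindlin complex, changed least, with 8.87, 8.84 and 8.84 in SY5Y-TR1 cells, against 10.34, 10.31 and 10.35 in SH-SY5Y cells (-1.49 ± 0.039 SE, 2.8-fold lower, limma adjusted p = 1.71e-07, probe set 204709_s_at). No kinesin's lines overlapped, and between these extremes KIF11, KIF2C, KIF4A, KIF14, KIF18A and KIF20B had log2 fold changes of -2.30 to -1.72.

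The 8 genes of spindle assembly and cytokinesis were all lower (median -2.25). DLGAP5 (HURP), which stabilizes microtubules near chromosomes, had 8.45, 8.27 and 8.31 in SY5Y-TR1 cells, against 11.27, 11.30 and 11.31 in SH-SY5Y cells (-2.95 ± 0.057 SE, 7.71-fold lower, limma adjusted p = 5.06e-08, probe set 203764_at). ECT2, the exchange factor that activates RHOA at the division plane, had 10.44, 10.45 and 10.43 in SY5Y-TR1 cells, against 11.78, 11.81 and 11.89 in SH-SY5Y cells (-1.39 ± 0.045 SE, 2.62-fold lower, limma adjusted p = 4.00e-07, probe set 219787_s_at). Its lines did not overlap either, and its probe set without a shared-sequence name, not above background in either line, had -0.55. ASPM, PRC1, NUSAP1, HMMR and TPX2, which organize spindle poles, midzone bundles and microtubule growth, had log2 fold changes of -2.42 to -2.13, and ANLN, the scaffold of the contractile ring, -1.46.

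Both transcription factors that drive G2 and M genes were lower by nearly the same factor. MYBL2 (B-MYB) had 7.46, 7.40 and 7.38 in SY5Y-TR1 cells, against 9.68, 9.68 and 9.72 in SH-SY5Y cells (-2.28 ± 0.043 SE, 4.85-fold lower, limma adjusted p = 4.50e-08, probe set 201710_at). FOXM1 had 8.30, 8.27 and 8.15 in SY5Y-TR1 cells, against 10.51, 10.44 and 10.53 in SH-SY5Y cells (-2.26 ± 0.055 SE, 4.77-fold lower, limma adjusted p = 1.28e-07, probe set 202580_x_at). The proliferation marker MKI67 (Ki-67), which coats mitotic chromosomes, had 7.17, 7.58 and 7.38 in SY5Y-TR1 cells, against 9.71, 9.77 and 9.73 in SH-SY5Y cells (-2.36 ± 0.099 SE, 5.13-fold lower, limma adjusted p = 1.42e-06, probe set 212022_s_at). Its SY5Y-TR1 arrays spread widely (SD 0.205, n = 3), yet none came near those of SH-SY5Y. TOP2A, the topoisomerase that untangles sister chromatids, had 10.21, 10.36 and 10.41 in SY5Y-TR1 cells, against 12.46, 12.51 and 12.55 in SH-SY5Y cells (-2.18 ± 0.062 SE, 4.53-fold lower, limma adjusted p = 2.47e-07, probe set 201291_s_at).

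A gene often has several probe sets on this array, so the readings were also compared within genes. The 54 genes had 108 probe sets, of which 88 were lower by the 2-fold rule, against 4.58% of all 54613 probe sets, and 0 were higher. Of the 28 genes with more than 1 probe set, 17 had every probe set called lower, and the 26 genes with a single probe set were all called lower. Of the 20 that were not called, 11 were not above background in either line, that is, at or below 5.79 on all 6 arrays. The other 9 comprised 4 of BUB3, and 1 each of AURKB (239219_at, log2 fold change -0.98), CCNB2 (232764_at, -0.17), CDC25A (204696_s_at, -0.74), CENPN (222118_at, -0.82) and SPC24 (217183_at, 0.10). For CCNB2 and SPC24 the disagreeing probe set lay near the background level, with some arrays above it and means of 5.86 and 5.74 in SY5Y-TR1 cells, against 6.03 and 5.64 in SH-SY5Y cells. No gene had probe sets called in opposite directions. Probe sets whose names mark sequence shared with other transcripts could not be avoided for every gene, as 42 of 54 had one without that mark, of which 39 were lower by the 2-fold rule.

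**Figure D3:**
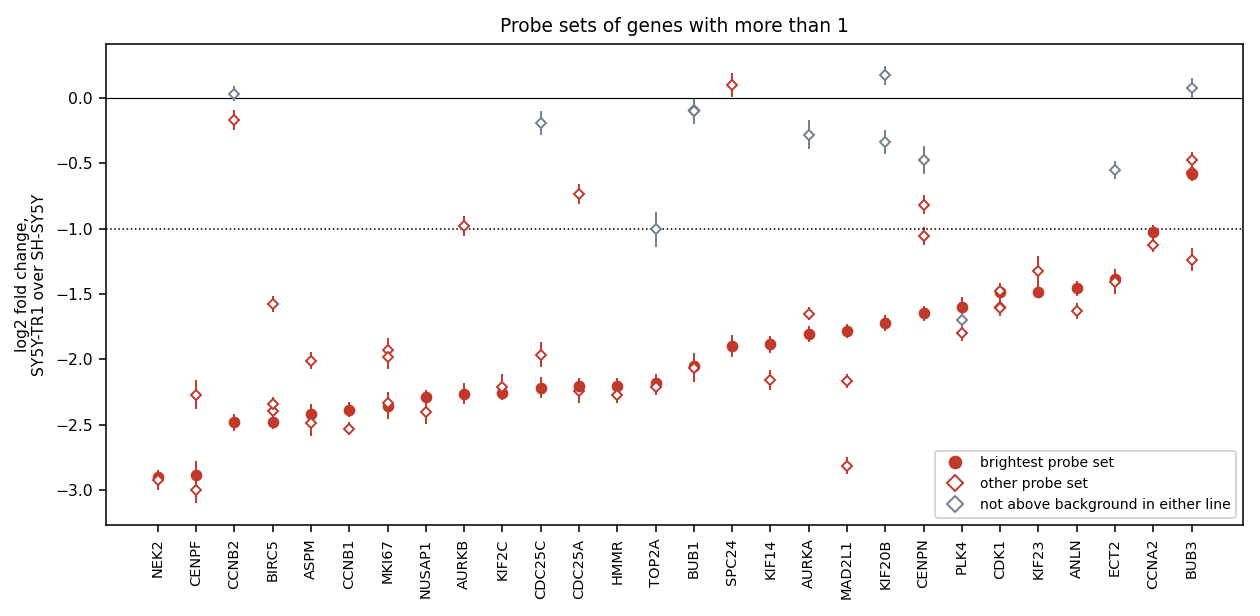
Log2 fold change in SY5Y-TR1 relative to SH-SY5Y (with standard errors) for every probe set of the 28 genes that had more than 1, the brightest filled, others open, and those not above background in either line grey. The open probe sets of SPC24 at 0.10 and CCNB2 at -0.17 stand away from the filled ones at -1.90 and -2.48.

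Other mitotic genes, listed by role and also with earlier results of these data known, were read in the same fit. Of 99 measured, 59 were lower by the 2-fold rule, against 5.99% of all genes, and 0 higher, against 5.36%. Their median log2 fold change was -1.26. At the adjusted p alone 84 were lower, against 24.4% of all genes, and 7 higher, against 28.5%. The largest decreases were those of DEPDC1B (-2.52), which acts in adhesion changes at mitotic entry, KNL1 (-2.42), the kinetochore scaffold that recruits BUB1 and BUB3, DEPDC1 (-2.24), the centromere protein CENPU (-2.15) and SPAG5 (astrin, -2.10), which secures attachments. Each was lower on all 3 SY5Y-TR1 arrays than on any SH-SY5Y array, with limma adjusted p from 3.66e-08 to 7.96e-06.

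The counts by the 2-fold rule differed between groups of these genes, with 5.99% of all genes called lower. Other spindle, midzone and cytokinesis genes were lower in 17 of 19 (median -1.61), condensin subunits in 6 of 8 (-1.42), entry and exit regulators in 10 of 13 (-1.35), other kinetochore, centromere and checkpoint genes in 17 of 28 (-1.31) and centriole duplication genes in 5 of 5 (-1.10). APC subunits and regulators were lower in 2 of 16, with a median of -0.10. The 2 were the APC inhibitor FBXO5 (EMI1, -1.49) and the chain-extending enzyme UBE2S (-1.47), neither of them a core subunit. At the adjusted p alone the list had 6 of 16 genes lower and 5 higher, against 24.4% and 28.5% of all genes. Of the 10564 genes at least as bright as the dimmest of the 54, 3909 were lower and 4089 higher at that limit. Core subunits went both ways, all short of 2-fold, with CDC23 at -0.48, ANAPC11 at -0.38, ANAPC7 at -0.31 and CDC27 at -0.19, and ANAPC13 at 0.48, ANAPC4 at 0.27, ANAPC10 at 0.21, CDC16 at 0.20 and CDC26 at 0.18. FZR1 (CDH1), the activator that replaces CDC20 late in mitosis, had 7.64, 7.61 and 7.62 in SY5Y-TR1 cells, against 7.58, 7.69 and 7.58 in SH-SY5Y cells, and these overlapped.

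Among DREAM and MuvB subunits, which repress or, with MYBL2, activate CHR promoters, 2 of 10 were lower by the 2-fold rule, against 5.99% of all genes (median -0.58). RBL1 (p107) had 6.45, 6.51 and 6.26 in SY5Y-TR1 cells, against 7.97, 7.85 and 8.12 in SH-SY5Y cells (-1.57 ± 0.090 SE, 2.98-fold lower, limma adjusted p = 6.41e-06, probe set 205296_at), and the MuvB subunit LIN9 fell by 1.48. RBL2 (p130), the pocket protein of DREAM in resting cells, had 9.81, 9.78 and 9.81 in SY5Y-TR1 cells, against 9.57, 9.59 and 9.62 in SH-SY5Y cells (0.21 ± 0.040 SE, 1.16-fold higher, limma adjusted p = 0.00344, probe set 212331_at). LIN37, a MuvB subunit, was higher by 0.58 (limma adjusted p = 3.86e-05), short of 2-fold. Neither gene's lines overlapped, which held in either direction for 11805 of 19752 genes. At the adjusted p alone 28.5% of all genes were higher. DNA replication genes, the set most like the mitotic one, were lower in 34 of 42, against 5.99% of all genes, with 0 higher. Their median was -1.50, from -2.45 for E2F2 to -0.05 for RFC5. The medians of these groups are descriptions, and the difference between groups was not tested.

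**Figure D4:**
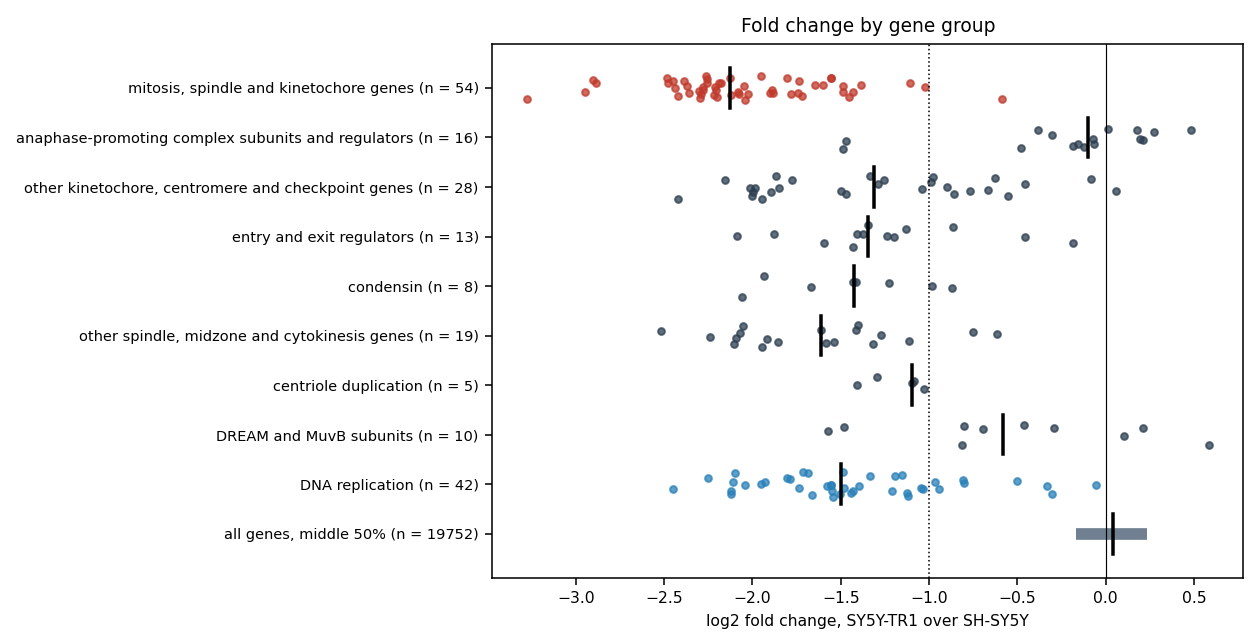
Log2 fold change in SY5Y-TR1 relative to SH-SY5Y for each gene (points) of the mitosis, spindle and kinetochore set, of 7 groups of other mitotic genes and of DNA replication genes, with medians as black bars, the middle 50% of all genes as a grey bar and the 2-fold limit dotted. The set centres on -2.12, DNA replication genes on -1.50 and the anaphase-promoting complex on -0.10.

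The 300-base windows around the start, 250 bases before to 50 after, were read for the 47 of 54 genes matched in RefSeq's table. TTTGAA, on either strand, was in 32 of 47 windows (68.1%), against 12.0% of the windows of all 15366 measured genes that had one and 15.5% of all 27195 windows in the table. Counting the variant TTCGAA as well, 33 windows held 1 of the 2 forms (70.2%, against 13.4% and 16.7%). CCAAT, on either strand, was in 36 windows (76.6%, against 36.0% of measured genes and 35.7% of all), and at least 2 of them in 51.1%, against 12.2% of measured genes. Both elements stood in 27 windows (57.4%, against 5.5% of measured genes and 6.62% of all). These shares come from sequence alone, and the list was made of known mitotic genes, many of whose promoters share these elements. Windows of other mitotic genes held TTTGAA in 41.4% of 87, and those of DNA replication genes in 2.63% of 38, although 52.6% of the replication windows held CCAAT.

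Places of the matches were read in the windows of these genes alone, so whether they differ from those in other genes was not tested. Of 44 TTTGAA or TTCGAA matches, 26 began between -60 and 10 bases from the start (median -22.5), and of 78 CCAAT matches 52 began between -120 and -40 (median -73.5). In the printed sequences this is the order in CCNB2 and PLK1, with CCAAT upstream and TTTGAA next to the start. CDK1 holds 1 of each farther upstream of its outer start in the opposite order, TTTGAA before CCAAT, and TOP2A holds its TTTGAA matches among CCAAT boxes, away from the start. CCNB1 and KIF20A hold 2 CCAAT boxes and no TTTGAA in the printed bases, and AURKB holds 1 CCAAT box and no TTTGAA. Median fold changes by motif are given as descriptions, and the difference between them was not tested. Only TTTGAA and TTCGAA were searched as forms of the CHR, in 1 window per gene. The 33 genes with TTTGAA or TTCGAA had a median log2 fold change of -2.07 and the 14 without -2.24, and the 5 with neither element had -2.26. A match is only a stretch of letters, and its absence from 1 window says nothing of binding.

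**Figure D5:**
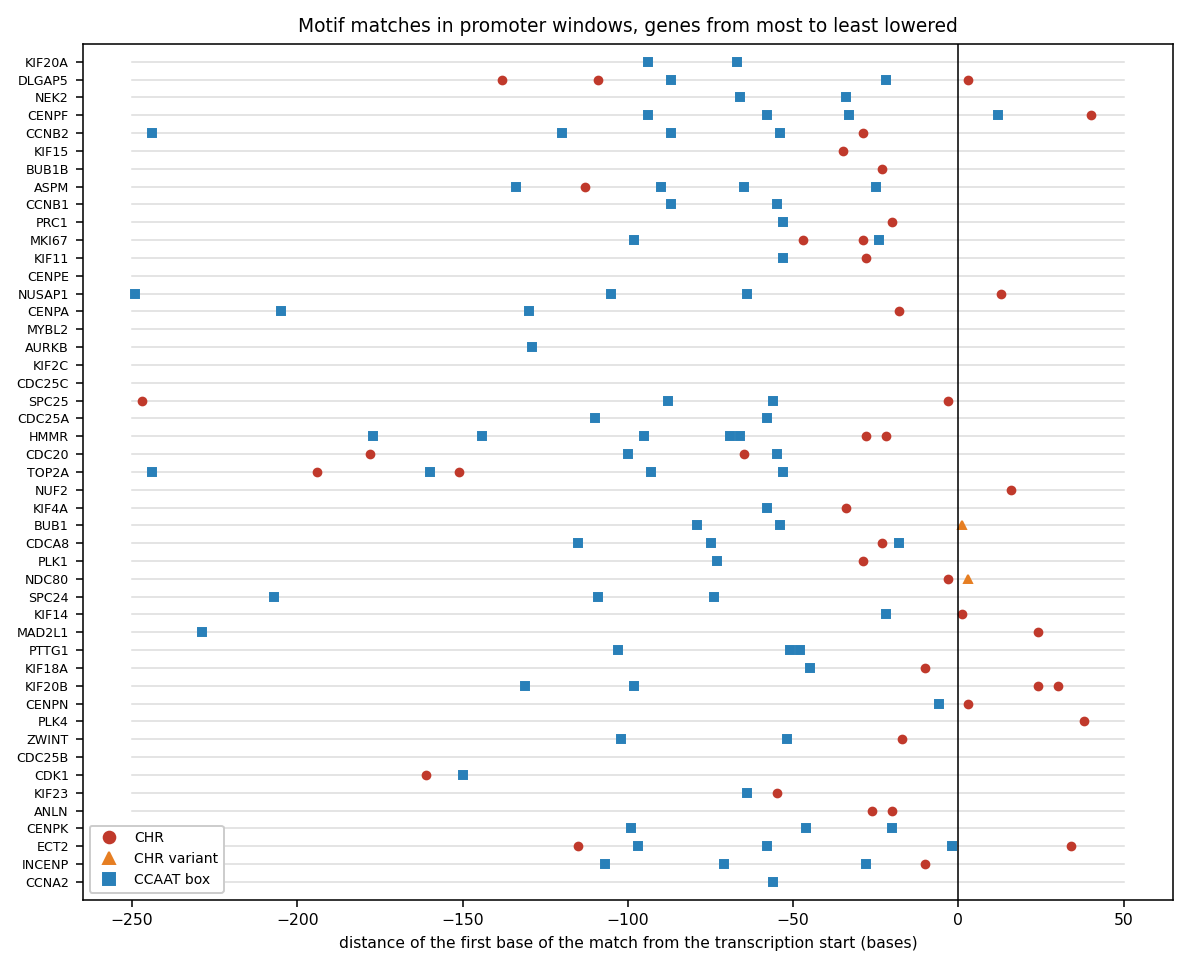
Positions of TTTGAA (CHR, red circles), TTCGAA (variant, orange triangles) and CCAAT (blue squares), on either strand, along the 300-base window of each of 47 genes, ordered from the most to the least lowered, in bases from the transcription start (black line). Circles gather just before the start, with a median of -22.5 for both CHR forms, and squares upstream of them, with a median of -73.5.

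Arrays of 1 line correlated at 0.997 to 0.998 over all probe sets and arrays of different lines at 0.959 to 0.960. Array medians over probe sets were 5.56 to 5.59, precision is limited by the number of arrays, and of 17 housekeeping genes measured 0 were called in either direction by the 2-fold rule in limma, although 7 were higher and 5 lower at the adjusted p alone (median log2 fold change 0.07). Markers of the neuroblast identity of these lines were present, PHOX2A, GATA2 and GATA3 among them, except TH, which was not above background in either line. By the 2-fold rule 6 of 9 were lower, against 5.99% of all genes, and 0 higher, against 5.36%. Their summed linear signal ran from 4754 to 4943 in SY5Y-TR1 cells, against 16931 to 17671 in SH-SY5Y cells. Of 7 fibroblast markers 3 were higher and 3 lower by that rule, against the same shares of all genes. Their sums were 13683 to 15391 in SY5Y-TR1 cells, against 4643 to 4847 in SH-SY5Y cells. Of 5 epithelial markers KRT8 and KRT18 were higher by the 2-fold rule, against 5.36% of all genes. Only 2 of the 5 were above background in at least 1 line. The epithelial sums were 9892 to 10043 in SY5Y-TR1 cells, against 4167 to 4550 in SH-SY5Y cells. No Schwann cell, blood cell or endothelial marker was called by the 2-fold rule, their sums staying between 134 and 166 in both lines. The part of these other changes in the mitotic result was not tested.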

How the data were processed

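Total RNA of SY5Y-TR1 and SH-SY5Y cells was hybridized to 3 U133 Plus 2.0 arrays per line. The deposited values are log2 signals that the authors made by RMA (background correction, quantile normalization and probe summary) in Affymetrix Expression Console, per the submitters' processing notes, with its version not given in the sources used here. Detection calls and scanner signals were not used here. After 62 control probe sets were left out, 41091 of 54613 had 1 gene symbol in the platform's annotation, updated through RefSeq (GRCh38.p14), 1801 several and 11721 none. These gave 19752 genes, each with its brightest such probe set. A linear model of line over all 6 arrays, with no replicate block, was fitted by lmFit and eBayes of limma 3.58.1 under R 4.3.3, with Benjamini-Hochberg adjustment over all genes. Called genes had to pass an adjusted p of 0.05 and a 2-fold difference. The same fit was also run on simulated data with known changes, whose values are not given here.

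Members and gene lists were chosen with earlier results of these data known. Named were the 8 largest decreases, the largest and smallest decrease of each role group, CDK1, CCNB1, PLK1, AURKA, AURKB, BIRC5, FOXM1, MYBL2, MKI67 and TOP2A, any gene whose probe sets disagreed in sign when called, and the 5 largest increases and decreases of other mitotic genes. Sequences were read from RefSeq windows for 47 genes. The alternatives were other probe-set rules, scalings, filters, tests, a fold limit of 1.5, a replicate block, and each array left out.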

Additional observations from a re-analysis of the deposited data

How the results depend on the processing

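Under the 15 alternatives other than the fold limit of 1.5, 381 of 386 values of the 26 named genes kept their direction and their side of the threshold and 0 reversed. The replicate block, the intensity trend with robust variance, the t-test and the filter for genes above background cannot change a fold change. Under those settings only the adjusted p could move a gene. Those that crossed the 2-fold limit or the adjusted p were CCNB2 (-0.87, mean of all probe sets), AURKA (-0.28) and ECT2 (-0.55), both on probe sets without shared-sequence names, CCNA2 (-0.996, centred on housekeeping genes) and BUB3, which passed at -1.24 without shared-sequence names. The count of the 54 genes called lower was 53 with the quantile normalization repeated, both rules on dim genes, the intensity trend with robust variance, the methods' t-test after Benjamini-Hochberg adjustment and at its unadjusted p, and each array left out. It was 52 after centring on housekeeping genes, 48 with the mean of all probe sets, and 39 of the 42 that had a probe set without a shared-sequence name. The median log2 fold change stayed between -2.14 and -2.03. At a fold limit of 1.5, 54 were called, BUB3 included, with 2169 genes higher and 2161 lower in all, against 1059 and 1184 at 2-fold, a change that the looser limit makes by construction. Leaving out 1 array at a time gave 1029 to 1081 genes higher and 1171 to 1205 lower.

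Over all probe sets, same-numbered arrays of the lines did not deviate together (correlations of -0.017, -0.028 and 0.005). Among the 54 genes, array 2 was most often the lowest in both lines, for 28 genes in SY5Y-TR1 and 25 in SH-SY5Y cells. Array 3 was most often the highest, for 23 and 26. Such counts were not taken over all genes. The median signal of the 54 was lowest on array 1 in SY5Y-TR1 (8.59) and array 2 in SH-SY5Y cells (10.88). It was highest on array 3 in SY5Y-TR1 (8.66) and array 1 in SH-SY5Y cells (10.90). Whether the numbers pair the samples cannot be told from these values. With the number as a replicate block, 53 of the 54 genes, 59 other mitotic genes and 34 DNA replication genes were lower, with 1184 genes lower and 1059 higher in all. Signals near background limit the dim probe sets, PLK1 in SY5Y-TR1 cells among them, and 3 arrays a line limit the rest. Centring on housekeeping genes moved the median of all genes by 0.03.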

Other observations

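The spread between arrays was not the same in both lines for the mitotic genes. Their median SD of the log2 signal was 0.0701 in SY5Y-TR1 cells and 0.0334 in SH-SY5Y cells (n = 3 arrays each), and the SD was larger in SY5Y-TR1 cells for 41 of 54. Over the 10564 genes at least as bright as the dimmest of them the median SDs were 0.0527 in SY5Y-TR1 cells and 0.0440 in SH-SY5Y cells, with 57.9% larger in SY5Y-TR1 cells. CENPF (SD 0.214) and MKI67 (SD 0.205) spread most in SY5Y-TR1 cells, and the largest SD in SH-SY5Y cells was 0.120, of CENPK. The difference in spread was not tested.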
